A study of Mus musculus with 6 samples.

Results

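Skeletal muscle fibre genes were followed in whole-aorta RNA of mice aged 32 weeks, read on 6 arrays. The wild-type group was C57BL/6J (3 arrays), and the other group was apoE-/- with the same C57BL/6J background (3 arrays). The members were 38 genes named by symbol, and every probe set whose platform annotation gave one of those symbols was taken. This gave 62 of the 45101 probe sets of the array, for 37 of the 38 genes and of 18193 genes with a symbol on the array. Xirp2 was the member without one. The apoE-/- mice lack apolipoprotein E, a ligand that clears lipoproteins from plasma, and develop atherosclerotic plaques. The arrays hold total RNA of the aorta, 1 array per labelled replicate, and the labels do not say whether a replicate was 1 animal, a pool or a repeat preparation. Each p-value therefore speaks to the spread among these samples alone, and that spread may be technical.

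Skeletal muscle fibres contract when myosin thick filaments pull on actin thin filaments inside the sarcomere, and calcium released from the sarcoplasmic reticulum switches the thin filament on through troponin. Fast fibres and slow fibres use different genes for many of the same parts, so that each has its own troponins, myosin chains and calcium pump. The aortic wall is built of smooth muscle, which has another set of contractile genes, and striated muscle is not a part of its media.

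Array medians lay between 178 and 195.5 units, and Apoe read 4309 to 5686 units on the wild-type arrays against 56.3 to 462.1 units on the apoE-/- arrays. The smooth muscle markers of the labelled tissue were high on every array, as for Myh11, the smooth muscle myosin (10116 to 13643 units). The wild type replicate 3 array stood apart from the other 5 in muscle fibre genes, so each result below that rests on it is also given without it. In bulk RNA, fewer cells of a type and less RNA per cell cannot be told apart.

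Of the 37 genes, each represented by its probe set of highest mean log2 value with no filter on dim probe sets, 17 read more than 3 times as high on wild type replicate 3 as on the highest of the other 5 arrays. Over all 18193 genes represented in the same way, 40 did so, or 0.220%. On the other 5 arrays no member exceeded that limit, although between 10 and 107 of all genes did. Among the 13031 genes that passed the filter on dim probe sets, wild type replicate 3 exceeded 3 times the highest other array for 8 genes (0.0614%), and all 8 were muscle fibre genes: Acta1, Actn3, Atp2a1, Myl1, Mylpf, Mybpc2, Pvalb and Tnni2. A further 3 genes, Ckm, Ryr1 and Ttn, passed the limit with a probe set other than the one that represented the gene, which brought the count to 20 of 37. The summed intensity of the 37 genes was 50726 units on wild type replicate 3, 12567 and 14078 units on the other wild-type arrays, and 7293 to 9438 units on the apoE-/- arrays.

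**Figure D1:**
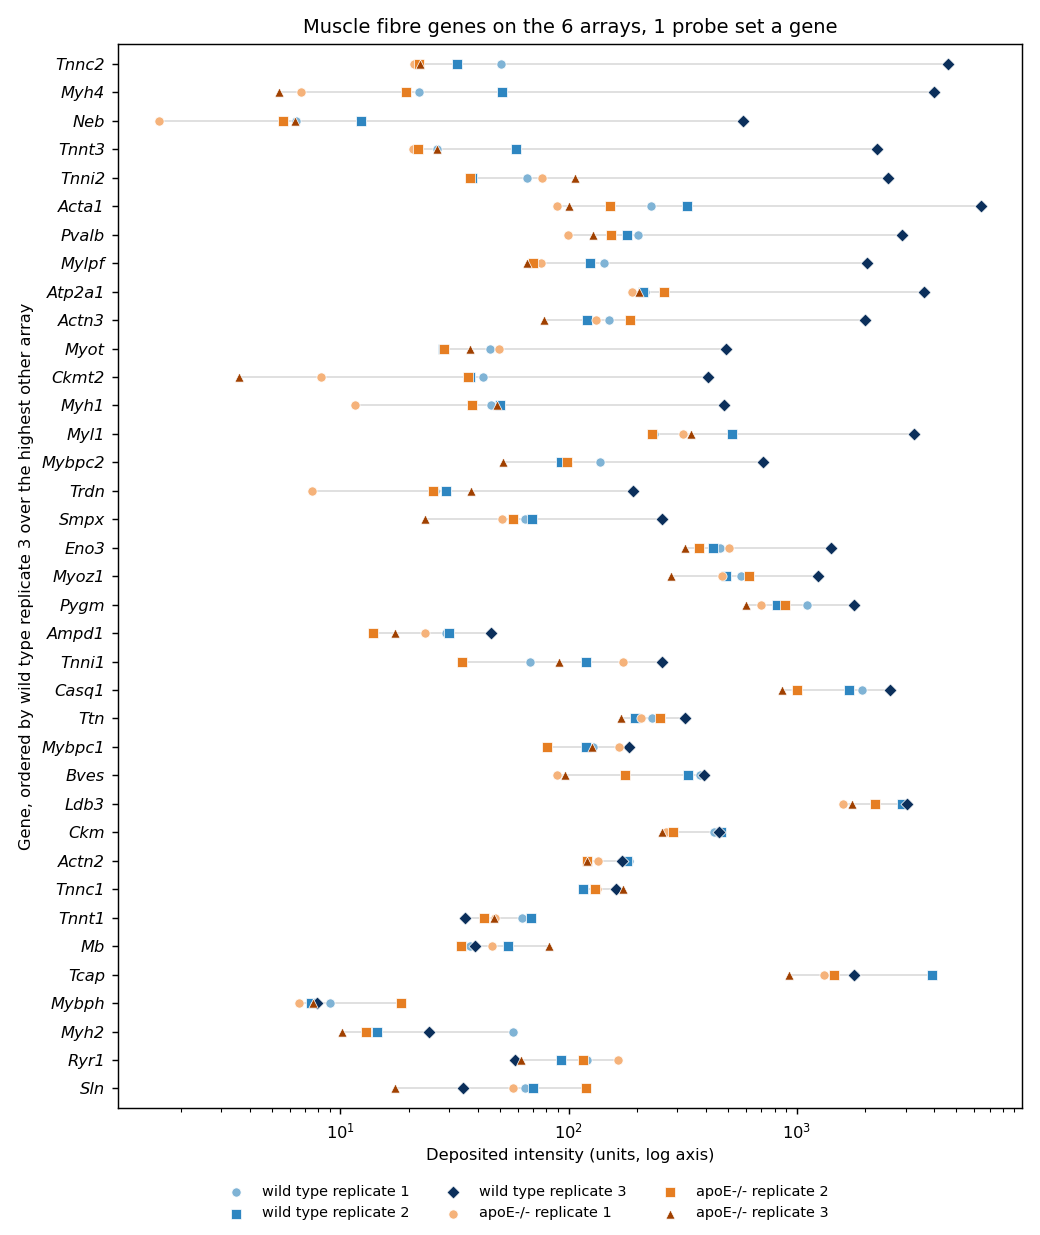
Intensity in units (log axis) of each muscle fibre gene on the 6 arrays, 1 probe set a gene, with 1 point per array and genes ordered by wild type replicate 3 over the highest other array. The dark diamonds of wild type replicate 3 lie far to the right of the other 5 points for the genes from Tnnc2 to Smpx (3.72 times or more), and among the other points for the genes at the bottom.

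Genes of the thick filament differed sharply among themselves. The 3 adult fast myosin heavy chain genes Myh4, Myh1 and Myh2 lie beside one another on chromosome 11 and encode the motors of the IIb, IIx and IIa fibre types. Their RefSeq promoter windows (GRCm38.p6, plus strand, the 250 bases before each gene start, 5′ to 3′) are shown because the first 2 genes followed the high array and the third did not. The windows are chr11:67237562-67237811 for Myh4, chr11:67199852-67200101 for Myh1 and chr11:67170777-67171026 for Myh2. Capitals mark matches to the MEF2 motif, bound by myocyte enhancer factors, and to the CArG box, bound by serum response factor.
Myh4: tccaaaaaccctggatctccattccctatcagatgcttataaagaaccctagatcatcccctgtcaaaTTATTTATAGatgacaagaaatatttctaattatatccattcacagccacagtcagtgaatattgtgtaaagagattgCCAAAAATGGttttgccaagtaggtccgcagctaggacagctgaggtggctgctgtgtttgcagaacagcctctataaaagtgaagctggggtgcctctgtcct
Myh1: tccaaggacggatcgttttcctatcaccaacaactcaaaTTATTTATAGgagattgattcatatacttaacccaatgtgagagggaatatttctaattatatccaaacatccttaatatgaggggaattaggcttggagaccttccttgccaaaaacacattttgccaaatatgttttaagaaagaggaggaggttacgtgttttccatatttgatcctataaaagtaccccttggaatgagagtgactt
Myh2: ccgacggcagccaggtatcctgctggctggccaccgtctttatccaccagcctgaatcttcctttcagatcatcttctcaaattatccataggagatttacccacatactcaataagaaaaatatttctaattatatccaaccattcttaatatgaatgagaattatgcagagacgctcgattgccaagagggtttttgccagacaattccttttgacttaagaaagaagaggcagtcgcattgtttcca

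Myh4 and Myh1 shared the MEF2 match TTATTTATAG, which began at -182 and -211 from the gene start, and Myh4 alone of the 3 had a CArG box match, CCAAAAATGG at -104. The Myh2 window held neither. Over all 32851 promoter windows of the same length, both strands read, 2.92% held a MEF2 match, 1.47% a CArG box match and 66.2% an E-box, CANNTG, the site of myogenic bHLH factors. RefSeq windows were found for 27 of the 38 genes. A MEF2 match was present in 4 of the 14 genes with a probe set past the limit of 3 on wild type replicate 3. These were Myh4, Myh1, Ttn and, in only 1 of its windows, Pvalb. Of the 12 others that have a probe set, 0 held a MEF2 match, and an E-box was present in 11 of 14 and 10 of 12. A gene counted when any of its windows matched, whereas the shares over all windows are per window. The MEF2 letters can overlap those of the TATA motif TATAAA, which 12.4% of all windows and 6 of the 27 genes held. A match describes the letters of a window and shows no binding.

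Myh4 read 22.1, 51.3 and 4006 units on wild type replicates 1, 2 and 3 and 6.7, 19.3 and 5.4 units on apoE-/- replicates 1, 2 and 3. A single array, wild type replicate 3, was thus 78.1 times the highest other one, and its second probe set gave 423.1 units there against at most 50.5 units elsewhere. Of the 3 Myh1 probe sets, 2 read 551.4 and 480.2 units on wild type replicate 3 and at most 52 units on any other array, and the last read at most 18.9 units. Myh2 read 57.2, 14.4 and 24.4 units in wild type and 12.9, 12.9 and 10.2 units in apoE-/-, with wild type replicate 1 and not 3 as the highest. The fast myosin genes are close copies of one another, so that which copy a probe set reads is uncertain. Mylpf, the regulatory light chain of fast myosin, read 143.4, 124.1 and 2036 units in wild type and 76, 69.5 and 65.6 units in apoE-/-. Myl1, the essential light chain of fast fibres, read 237.1, 521 and 3253 units and 318.8, 232.7 and 344.1 units. Wild type replicate 3 was again the high array for both light chains, while for Mylpf even the lower wild-type arrays lay above all apoE-/- arrays. Mybpc2, the fast myosin-binding protein C, was 5.16 times the highest other array on wild type replicate 3 (709.6 units), whereas the slow form Mybpc1 was 1.11 times (183.8 against 166.3 units) with the probe set that represents it. A dimmer Mybpc1 probe set was 2.46 times (121.3 against 49.4 units), and the last was 14.4 units there, below its highest value of 52.9 units. Mybph, a related thick filament protein, read at most 18.5 units on any array.

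Thin filament genes were high on wild type replicate 3 in actin, the fast troponins and nebulin. Acta1, skeletal alpha-actin, read 229.5, 329.3 and 6440 units in wild type and 89.3, 151.5 and 100.3 units in apoE-/-. All 3 wild-type arrays were above all 3 apoE-/- arrays, also with wild type replicate 3 set aside. With all 6 arrays and no filter, groups were separated in this direction for 16 of the 37 members and for 12.5% of all 18193 genes. Tnnc2, the calcium-binding troponin of fast fibres, read 50.6, 32.4 and 4616 units and 21.1, 22.1 and 22.3 units, so that wild type replicate 3 was 91.2 times the highest other array. The other arrays were under 100 units for Tnnc2, Myh4, Tnnt3 and Neb, with no detection call, so the size and order of these ratios are not settled. The fast tropomyosin-binding troponin Tnnt3 read 26.4, 58.7 and 2253 units in wild type and 20.9, 21.8 and 26.4 units in apoE-/-. The fast inhibitory troponin Tnni2 read 65.9, 37.8 and 2509 units in wild type and 76.2, 37 and 106.5 units in apoE-/-. Unlike those of Acta1 and Tnnc2, its groups overlapped with all 6 arrays, and apoE-/- replicate 3 was the highest array after wild type replicate 3. Neb, nebulin, the ruler of the thin filament, read 6.4, 12.3 and 581.3 units in wild type and 1.6, 5.6 and 6.3 units in apoE-/-.

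None of the 3 slow troponins passed the limit of 3 on wild type replicate 3. Tnnc1, the calcium-binding troponin of slow and heart muscle, read 130.2, 115.4 and 161.6 units in wild type and 132.9, 130.6 and 173.7 units in apoE-/-, with overlapping groups. Tnni1, the slow inhibitory troponin, read 67.8, 119 and 256.3 units and 172.4, 34.2 and 90.4 units, where wild type replicate 3 was 1.49 times the highest other array. Tnnt1, the slow tropomyosin-binding troponin, read 62.8, 68.6 and 35.3 units and 47.6, 42.4 and 47 units, where wild type replicate 3 was the lowest of all 6 arrays.

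Fast and slow lists were set side by side as mean log2(intensity + 16), centred on each gene's own mean over the 6 arrays. The 14 fast genes averaged 3.12 on wild type replicate 3, -0.32 and -0.39 on wild type replicates 1 and 2, and -0.85, -0.69 and -0.87 on apoE-/- replicates 1, 2 and 3. The 11 slow genes, which added Myh7, Myl2, Myl3, Atp2a2, Casq2, Tpm3 and Myoz2 to the 3 slow troponins and Mybpc1, averaged 0.07 on wild type replicate 3 and between -0.19 and 0.11 on the other arrays. The 3 slow troponins and Mybpc1 alone averaged 0.37 on wild type replicate 3, their highest array, and between -0.53 and 0.21 on the others. Of the fast genes, 11 of 14 passed the limit of 3 on wild type replicate 3 (median 12.2 times the highest other array), and of the slow genes 0 of 11 (median 0.78, range 0.35 to 1.49). The lists differ in level, so these counts are not like for like. Atp2a2 read 6391 to 8210 units and Tpm3 3290 to 5489 units over all arrays, where a given added signal moves a ratio little. Tnnc2 and Myh4 read at most 50.6 and 51.3 units outside wild type replicate 3. The fast genes that did not pass were Casq1, Myoz1 and Myh2. Myh7, the slow myosin heavy chain, read at most 49.8 units on any array, and that array was apoE-/- replicate 2.

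**Figure D2:**
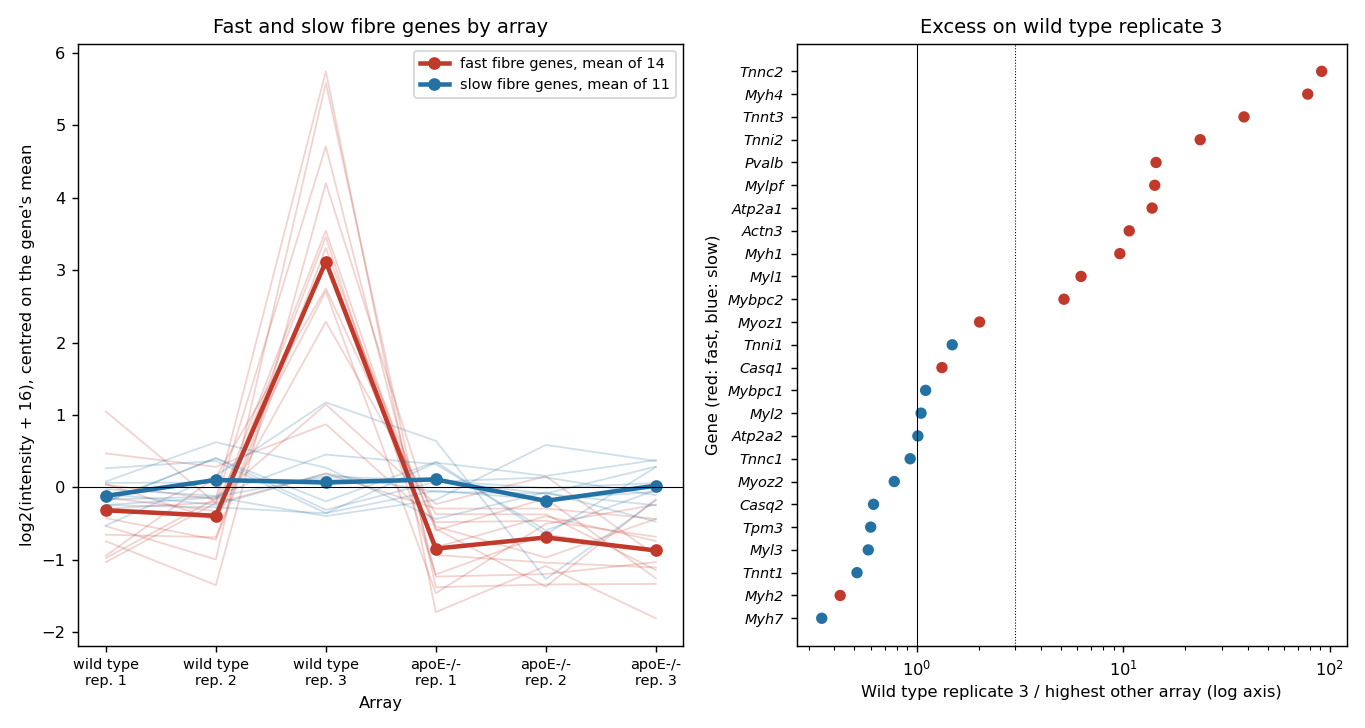
Left, log2(intensity + 16) centred on each gene's mean for 14 fast and 11 slow fibre genes on the 6 arrays, with thin lines for genes and thick lines for list means. The fast mean peaks at 3.12 on wild type replicate 3, where the slow mean is 0.07. Right, wild type replicate 3 over the highest other array (log axis; solid line at 1, dotted line at 3), where 11 fast genes and 0 slow genes lie right of the dotted line.

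Genes of the Z-disc, which anchors the thin filaments, and of titin fell into both kinds. Actn3, the alpha-actinin of fast fibres, read 151.1, 120 and 1983 units in wild type and 132.4, 185.6 and 77.9 units in apoE-/-. Actn2, the alpha-actinin found in all fibres and in heart, read 183.4, 180.5 and 171.4 units and 133.9, 120 and 120.8 units. Wild type replicate 3 was thus far the highest for Actn3 and the lowest wild-type array for Actn2, whose groups did not overlap. Myot, myotilin, reached 491 units on wild type replicate 3 (at most 49.5 units elsewhere), and Smpx, a small muscle protein linked to costameres, 257.6 units (at most 69.2 units). Myoz1, the fast-fibre calsarcin, read 1243 units there and 280.4 to 616.5 units on the other 5 arrays.

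Tcap, telethonin, which caps titin at the Z-disc, read 1807, 3909 and 1789 units in wild type and 1315, 1456 and 921.8 units in apoE-/-. Its groups did not overlap, and its highest array was wild type replicate 2. The brown adipocyte genes were high on that array too: their 9 genes summed to 40012 units there, against 17726 and 26050 units on wild type replicates 1 and 3 and 15234 to 23201 units in apoE-/-. Their part in the Tcap values was not tested.

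Ttn, titin, the elastic giant of the sarcomere, had 6 probe sets that disagreed. One probe set read 105.6, 97 and 1758 units in wild type and 104.3, 100.5 and 105.8 units in apoE-/-, and a second was also high on wild type replicate 3 (972 units against at most 83.3). The probe set with the highest mean log2 value, which represents the gene, read 231.8, 196.2 and 322.4 units and 206.7, 252.5 and 169.9 units. That one was 1.28 times the highest other array on wild type replicate 3, so the titin value depends on the probe set, and the cause of the disagreement was not tested.

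Genes of calcium handling included Casq1, the 1 member that was called in every alternative fit but the ordinary two-sample test. Casq1, calsequestrin 1, the calcium store protein of the fast-fibre sarcoplasmic reticulum, read 1934, 1699 and 2564 units in wild type and 993.6, 1007 and 862.5 units in apoE-/-. Every wild-type array lay above every apoE-/- array, and wild type replicate 3 was only 1.33 times the next one. Casq1 fell by 1.08 ± 0.15 on the log2 scale (SE, limma adjusted p = 0.00686). The wild-type mean was 2066 ± 447 units and the apoE-/- mean 954 ± 79.9 units (SD, n = 3 each). Atp2a1, the calcium pump of fast fibres, read 217, 211.3 and 3613 units and 190.5, 262.1 and 203.5 units, so that only wild type replicate 3 differed. Pvalb, parvalbumin, the soluble calcium buffer of fast fibres, read 200.5, 180.7 and 2888 units and 99, 152.7 and 127.3 units, with no overlap between groups. For Ryr1, the calcium release channel, 1 probe set read 481.7 units on wild type replicate 3 (at most 95.9 elsewhere), and the other, which represents the gene, 58.2 units, its lowest value. Trdn, triadin, which ties the channel to calsequestrin, read 191.4 units on wild type replicate 3 with 1 of its 6 probe sets and under 100 units on all arrays with the other 5. The 2 probe sets of Sln, sarcolipin, an inhibitor of the calcium pump, read 34.3 and 20.7 units on wild type replicate 3 and were highest on other arrays (118.8 and 69.6 units).

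Among the enzymes and the oxygen store, the 2 probe sets of creatine kinase were both lower in apoE-/- but differed on wild type replicate 3. Ckm, the cytosolic muscle creatine kinase that buffers ATP, read 112, 167.2 and 2477 units in wild type and 69.1, 65 and 23 units in apoE-/- with the probe set that the annotation ties to the RefSeq transcript. The other probe set, tied to another sequence record, read 432.2, 467.7 and 454.6 units in wild type and 267.3, 286 and 256.2 units in apoE-/-. Groups did not overlap with either, but wild type replicate 3 was 14.8 times the highest other array with the first and 0.97 times with the second. The second had the higher mean log2 value and represented the gene, so that Ckm fell by 0.71 ± 0.13 (SE, limma adjusted p = 0.0218). With all kept probe sets tested singly, the first stood at -2.59 ± 0.95 on the log2 scale (limma adjusted p = 0.223). Ckm lies within 10 Mb of Apoe, the targeted locus, as does Ryr1, and the part of that position was not tested.

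Ckmt2, the mitochondrial creatine kinase of striated muscle, read 42, 36.9 and 409.6 units in wild type and 8.2, 36.4 and 3.6 units in apoE-/-. Eno3, muscle enolase, read 463, 428.2 and 1408 units and 505.2, 374.6 and 324.5 units, and Pygm, muscle glycogen phosphorylase, 1114, 818.5 and 1774 units and 694.1, 892.6 and 600.8 units. On wild type replicate 3 these genes of sugar breakdown were 2.79 and 1.59 times the highest other array, from a level already present on all 6. Ampd1, the AMP deaminase of muscle, stayed between 13.9 and 45.7 units. Mb, myoglobin, the oxygen store of slow and heart muscle, read 38.8 and 55.3 units on wild type replicate 3 with its 2 probe sets and at most 82.2 units on any array.

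Bves, a cyclic AMP-binding membrane protein of the Popeye family in muscle and epithelia, and Ldb3, a Z-disc protein that binds alpha-actinin, were the other members that changed. Bves read 377.8, 332.6 and 391.5 units in wild type and 88.6, 176.7 and 96.9 units in apoE-/- with the probe set that represents it. It fell by 1.54 ± 0.25 (SE, limma adjusted p = 0.0125), with means of 367 ± 30.8 and 121 ± 48.6 units (SD, n = 3 each), and the groups did not overlap. The other Bves probe set read 297.9, 166 and 312.9 units and 51.8, 283.6 and 52.2 units, so that apoE-/- replicate 2 lay within the wild-type range there. Ldb3 read 3040, 2878 and 3045 units in wild type and 1596, 2210 and 1739 units in apoE-/- with the probe set that represents it. It fell by 0.70 ± 0.12 (SE, limma adjusted p = 0.0200), and in its other 2 probe sets the groups did not overlap either, with wild type above. Of the promoter windows of the 4 genes called, those of Casq1, Ckm and Ldb3 were found, and only Ldb3 held a CArG box match, in each of its 2 windows. In the window shown (chr14:34588682-34588931, minus strand, GRCm38.p6) the match is CCATTTATGG, 35 bases before the start and in capitals.
Ldb3: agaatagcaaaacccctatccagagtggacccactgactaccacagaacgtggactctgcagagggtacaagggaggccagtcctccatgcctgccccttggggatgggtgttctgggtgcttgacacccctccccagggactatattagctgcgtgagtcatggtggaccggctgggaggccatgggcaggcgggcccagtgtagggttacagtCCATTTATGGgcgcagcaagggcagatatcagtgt

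**Figure D3:**
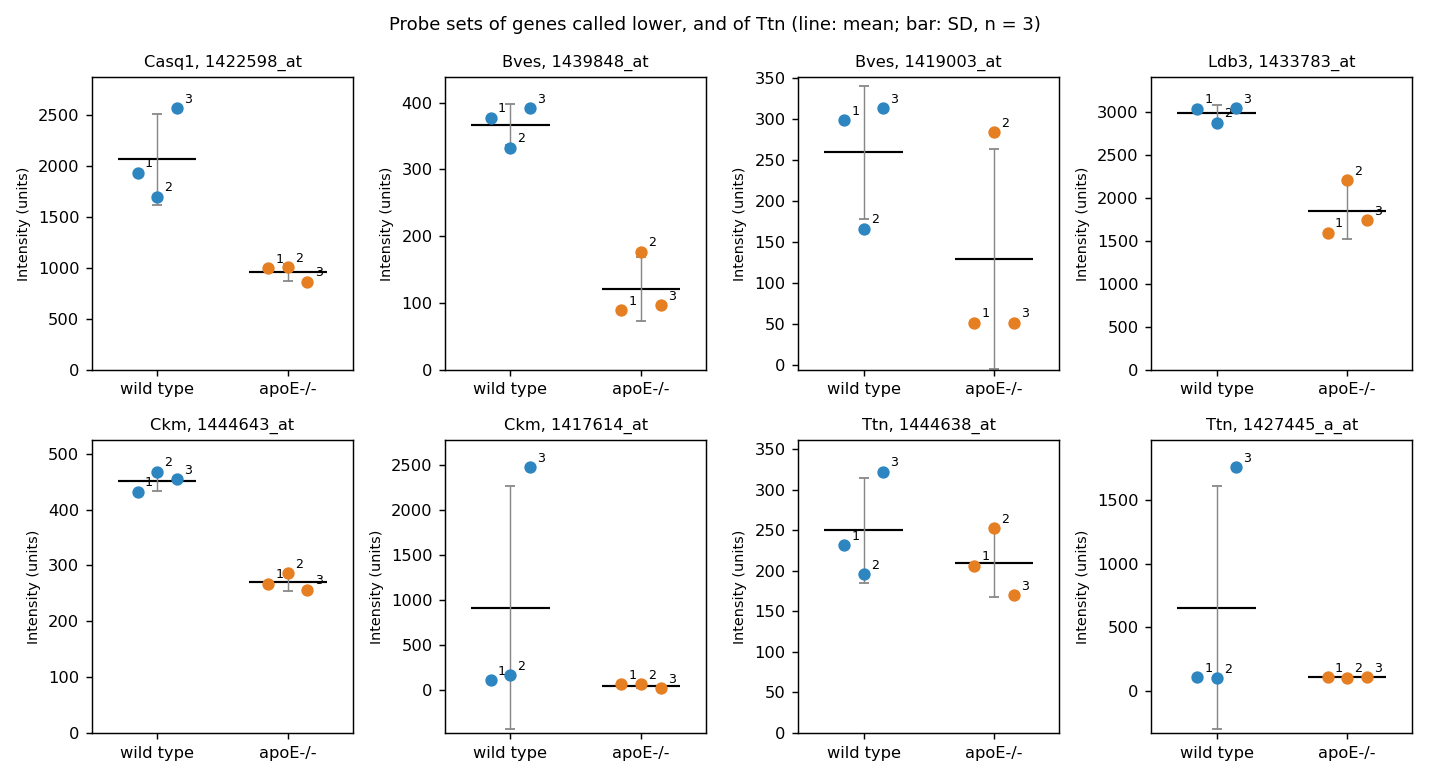
Intensity in units of 8 probe sets, with 1 numbered point per replicate, a line at the mean and a bar for the SD (n = 3). Casq1, Ldb3 and the representing probe sets of Bves and Ckm separate the genotypes. Wild type replicate 3 lies close to the other wild-type points for Ldb3, Bves and Ckm, and above them for Casq1 (1.33 times the next). The other Ckm probe set and the last Ttn panel are high on wild type replicate 3 alone.

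In the genotype comparison by limma over 13031 genes, 20 of the 37 members passed the filter on dim probe sets and 4 fell: Bves, Casq1, Ckm and Ldb3. Over all genes tested, 0.483% were called lower. No member was called higher (0 at an unadjusted p under 0.05 by limma or by the ordinary two-sample test, against 9 lower by limma and 5 by the ordinary test), and 3.15% of all genes were. At that unadjusted p, 8.81% of all genes were lower by limma and 9.56% higher. A member such as Tnni2, at 37 to 106.5 units on the other 5 arrays, could pass the filter through wild type replicate 3, so these 20 do not stand for all 37. The median log2 change of the 20 was -1.01, and the whole table of genes had a median of -0.05. Of the 20, 19 had a negative change, as had 58.9% of the whole table. The members with the largest changes were not those called: Acta1 changed by -2.69 ± 1.04 (SE, limma adjusted p = 0.216), Mylpf by -2.05 ± 0.87 (limma adjusted p = 0.260) and Pvalb by -1.83 ± 0.88 (limma adjusted p = 0.317).

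Without wild type replicate 3 the median of the 20 was -0.41, against -0.05 over all genes, and 0.169% of all genes were called lower. Casq1 was then the 1 member called, at -0.92 ± 0.13 on the log2 scale (limma adjusted p = 0.0171). Bves (-1.49 ± 0.29, limma adjusted p = 0.0551), Ldb3 (-0.69 ± 0.15, limma adjusted p = 0.0748) and Ckm (-0.71 ± 0.16, limma adjusted p = 0.0808) kept nearly the same size of change and did not pass with 5 arrays. Only Casq1 was called, too, without wild type replicate 1 and without replicates 1 or 3 of apoE-/-, whereas Bves, Casq1 and Ldb3 were called without wild type replicate 2. By contrast the log2 change of Acta1 went from -2.69 to -1.20, that of Mylpf from -2.05 to -0.79 and that of Pvalb from -1.83 to -0.55. That of Actn3 went from -1.34 to -0.10 and that of Tnni2 from -1.41 to 0.34. These values moved toward 0 or past it without that array, while those of Bves, Ldb3, Actn2 (-0.47 with it, -0.49 without) and the probe set that represents Ckm moved by less than their SE. The RefSeq-tied Ckm probe set went from -2.59 to -1.25, as its high value on wild type replicate 3 was then left out (limma adjusted p = 0.223 and 0.232).

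A muscle index was also entered as a further term in the fit, namely the array mean of the centred log2 values of Acta1, Myl1, Mylpf, Tnnc2, Tnni2 and Tnnt3. It was 4.19 on wild type replicate 3, -0.63 and -0.44 on the other wild-type arrays, and -1.05, -1.14 and -0.92 on apoE-/- replicates 1, 2 and 3. With it, 0.138% of all genes were called lower and Casq1 was again the 1 member called (-0.87 ± 0.14, limma adjusted p = 0.0320). Bves stood at -1.49 ± 0.31 (limma adjusted p = 0.0797), and the median of the 20 members was -0.18. Of those 20, 4 are index genes (Acta1, Myl1, Mylpf and Tnni2), each fitted with the index of the other 5. For the 16 outside the index, the median went from -0.71 to -0.18 when the index was entered. Because the index is made of muscle fibre genes, this fit describes what is left beside them and is no independent test.

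**Figure D4:**
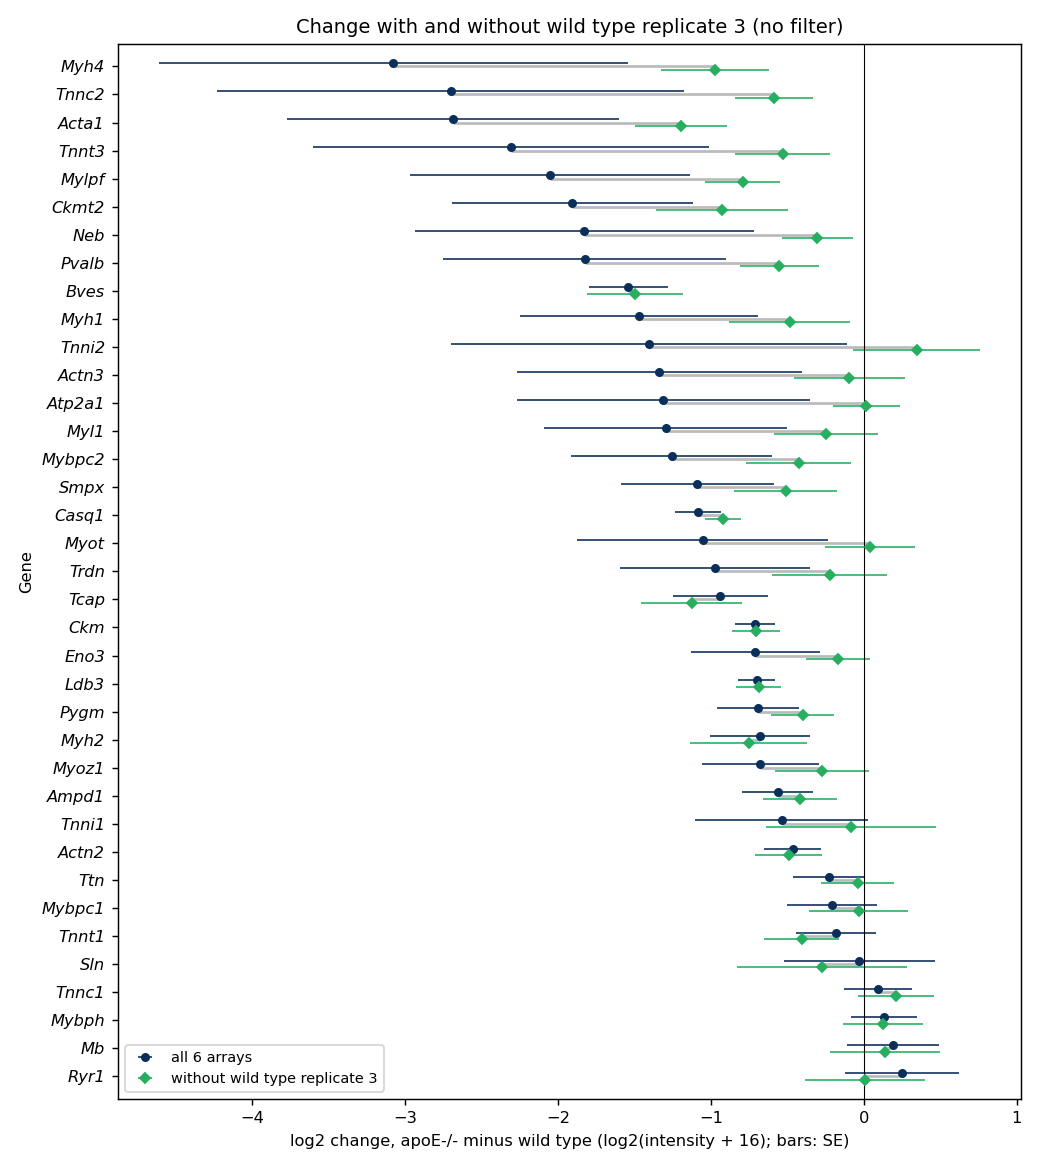
Log2 change of each member, apoE-/- minus wild type, fitted with no filter on all 6 arrays (circles) and without wild type replicate 3 (diamonds), with bars for the SE. The 2 marks lie far apart for genes such as Myh4 (-3.08 and -0.97) and Tnnc2 (-2.70 and -0.59) and close together for Bves, Casq1, Ckm, Ldb3 and Actn2.

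The other 5 arrays held a smaller difference in the same direction. With wild type replicate 3 set aside and no filter, all 3 apoE-/- values lay below both wild-type values for 17 of the 37 members (45.9%), against 17.7% of all 18193 genes, and above both for 1 member, Tnnc1, against 12.9%. The 17 included Acta1, Mylpf and Pvalb, and also Bves, Casq1, Ckm, Ldb3, Actn2 and Tcap, whose representing probe sets stayed under the limit of 3 on wild type replicate 3. The rest were Ckmt2, Myh2, Myh4, Neb, Tnnc2, Tnnt1, Ampd1 and Smpx, all under 100 units on the 5 arrays. Many of these levels were low: 14 of the 37 genes read under 100 units on all 5 arrays, and the files give no detection call by which to tell such values from background. The fast genes had a median log2 change of -0.51 over the 5 arrays and the slow genes of -0.06. Single fast genes ran from -0.97 for Myh4 to 0.34 for Tnni2. The fast genes over 100 units on all 5 arrays stood at -0.92 for Casq1, -0.28 for Myoz1, -0.25 for Myl1 and 0.02 for Atp2a1. The fast median thus rests largely on dimmer genes.

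Genes of the same pathway outside the 37 were read from lists, which share some genes. Of the further fibre genes, Cox7a1 and Cox8b are also on the brown adipocyte list and Myl2 and Myl3 on the heart muscle list. Des is also on the smooth muscle list and Myf6 on the myogenic factor list. Of 43 further fibre genes, 25 were tested. Their median log2 change was -0.32 (-0.13 without wild type replicate 3) against -0.05 over all genes. Where 0.483% of all genes tested were called lower and 3.15% higher, 0 of the 25 fell and 1 rose. The one that rose was Tpm3, a tropomyosin of slow fibres that many other cells also make, from 3557, 3487 and 3290 units in wild type to 5359, 4716 and 5489 units in apoE-/- (log2 change 0.59 ± 0.09, SE, limma adjusted p = 0.0110, and 0.0568 without wild type replicate 3). Another 7 of the 25 were lower at an unadjusted p under 0.05, as were 8.81% of all genes tested. Genes of this list past the limit of 3 on wild type replicate 3 were Pgam2, the phosphoglycerate mutase of muscle (428.1 against 16 units), and Trim63, a muscle ubiquitin ligase (86.1 against 16.2 units), both named after their values were seen.

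Of 14 heart muscle genes, 8 were tested, 1 fell and 0 rose, with a median of -0.31 (-0.24 without wild type replicate 3). Over all genes tested, 0.483% were called lower and 3.15% higher, and the median was -0.05. None of the 13 with a probe set passed the limit of 3 on wild type replicate 3. Ryr2, the calcium release channel of heart and smooth muscle, fell by 0.68 ± 0.15 (SE, limma adjusted p = 0.0498), from 789.7, 716.1 and 734.2 units to 440.3, 573.3 and 388.3 units, and was not called without wild type replicate 3 (limma adjusted p = 0.137). Summed over the 13 heart genes on the array, intensity was 3868 to 4714 units in wild type and 2916 to 4500 units in apoE-/-. The atrial light chain Myl7 read 114.8 to 209.1 units, the atrial peptide Nppa 22.1 to 118 units and the heart troponin Tnni3 11.8 to 96.1 units. Myh6 read 53.5 to 213.7 units. Other heart markers were brighter on all arrays, with Tnnt2 at 671.1 to 1443 units and Actc1 at 408.2 to 937.2 units.

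Myogenic factor genes, smooth muscle genes and Popeye genes had 0 called members by limma, where 0.483% of all genes were called lower and 3.15% higher. Of 9 genes of muscle stem cells and myogenic factors, 4 were tested (median -0.33, and -0.29 without wild type replicate 3). Of these, 1 was lower at an unadjusted p under 0.05 by limma. Mef2c, a transcription factor of all muscle types, had the smallest p (log2 change -0.34 ± 0.09, limma adjusted p = 0.0791). All 14 smooth muscle genes were tested (median -0.15, and -0.14 without wild type replicate 3). Of the 14, 3 were lower at an unadjusted p under 0.05, which 8.81% of all genes were, led by Smtn, smoothelin, at -0.33 ± 0.09 (limma adjusted p = 0.0858). Their summed intensity was 122586 to 138392 units in wild type and 107980 to 130386 units in apoE-/-, and its part in the falls of Casq1, Bves, Ldb3 and Ckm was not tested. Popdc2, a relative of Bves, had a log2 change of -0.38 ± 0.13 (limma adjusted p = 0.179, unadjusted p under 0.05), and of -0.33 without wild type replicate 3.

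Of the 10 brown adipocyte genes, 9 were tested, with a median of -0.56 (-0.58 without wild type replicate 3) against -0.05 over all genes. By limma 0 of the 9 were called, where 0.483% of all genes were called lower and 3.15% higher. At an unadjusted p under 0.05, 8.81% of all genes were lower and 1 of these 9 was. Fabp3, a fatty acid binding protein of muscle and brown fat, had the smallest p, at -0.56 ± 0.17 (limma adjusted p = 0.126). None of the 9 passed the limit of 3 on wild type replicate 3, where Ucp1, the brown fat uncoupler, read 8435 units against 11092 units on wild type replicate 2.

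Outside the members, the tested genes that leaned most to wild type replicate 3 were also read, by their ratio to the highest other array. Cox6a2, the heart and muscle form of a cytochrome oxidase subunit, led with 2.61 times (750 against 287.6 units), followed by Cmya5, a muscle costamere protein, with 2.35 times (803.2 against 342.1 units). Others among the 12 highest were Apobec2, a muscle member of the deaminase family (1.98 times), Asb11 (1.97), Hjv, hemojuvelin, made in muscle and liver (1.97), and Mylk2, the myosin kinase of skeletal muscle (1.89). The remaining 6 were Smr2 (2.23), Tmem59 (1.92), 4930448K20Rik (1.85), Ksr2 (1.82), Kif12 (1.81) and Il17rc (1.80). With no filter, 9 genes outside the members were past the limit of 3 and above 100 units on wild type replicate 3, all named after their values were seen. Besides Pgam2 they included Rpl3l, a ribosomal protein of striated muscle, at 7.04 times (160.6 against 22.8 units). The other 7 were Aknaos (4.13 times), Htr5b (4), Utf1 (3.93), Gm3458 (3.25), Clvs2 (3.17), Fam181a (3.15) and Cdh17 (3.09), none of them on a muscle list used here.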

How the data were processed

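The authors deposited 1 linear intensity per probe set and array, with software not given in the sources used here. All 6 arrays share a mean of 500.002 after trimming 2% at each end, so the authors had scaled them alike. The number of arrays limits the precision. Symbols came from the platform annotation, updated through gene identifiers of the GRCm38.p6 RefSeq table; probe sets with several symbols were not used. Values were taken as log2(intensity + 16), which understates changes of dim probe sets. The 64 control probe sets and the lower 40% by mean log2 value were left out, and 1 probe set a gene, of highest mean log2 value, was kept (13031 genes). The genotype comparison used limma 3.58.1 (R 4.3.3; eBayes with trend, genotype the only term). Calls needed a Benjamini-Hochberg adjusted p under 0.05, and the fit was tested on simulated data. With 3 against 3, an exact permutation test cannot give p below 0.1, so none is given. Ratios of wild type replicate 3 to the highest other array use the deposited intensity and were not tested. The members and gene lists were chosen with earlier results of these data known. All 38 members are named; of other lists, called genes or the gene of smallest p, of ratios the 12 highest non-members, and cell type markers. Promoter windows are RefSeq's; windows on some chromosomes are not shown. Leaving out an array kept the genes tested fixed.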

Additional observations from a re-analysis of the deposited data

How the results depend on the processing

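The 4 members called lower (Bves, Casq1, Ckm and Ldb3) were the same 4 under log offsets of 1 and 64, quantile normalization, median centring, no filter, probe sets tested singly and array weights. With a 60% filter 10 members were tested, Bves not among them, and 3 were called. With no intensity trend 3 were called, and Ldb3 was not (limma adjusted p = 0.0543). With probe sets of a gene combined by their median 1 was called, with the replicate block 2 (Bves and Casq1) and with the muscle index 1. With the ordinary two-sample test 0 were called (5 lower at an unadjusted p under 0.05, lowest adjusted p over all genes 0.103). Leaving out 1 array gave 1 to 4 members called. The median log2 change of the members tested was -0.82 with a 60% filter (over the 10 then tested) and -0.18 with the muscle index, and -1.12 to -0.41 when 1 array was left out. With no filter and without wild type replicate 3, an alternative chosen after seeing the data, it was -0.41 with 1 member called, and 93 of all genes were called higher and 14 lower.

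Over all genes, 410 were called higher and 63 lower; the lower count was 41 with median centring, 31 without a trend, 121 with array weights, 18 with the replicate block and 18 with the muscle index, and the higher count 660 for single probe sets and 134 with the index. The ordinary test called 0 in either direction (1011 higher and 1058 lower at an unadjusted p under 0.05). Leaving out 1 array gave 145 to 545 higher and 10 to 156 lower.

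With the muscle index the log2 changes of uncalled members turned positive for Actn3 (0.27), Atp2a1 (0.43), Myl1 (0.10), Mybpc1 (0.0284), Tnni2 (1.08) and Ttn (0.0087). Without single arrays, Atp2a1 ranged from -1.98 to 0.0162, Tnni2 from -2.43 to 0.34, Mybpc1 from -0.42 to 0.0378 and Tnnc1 from -0.0271 to 0.21. With no filter and without wild type replicate 3, Atp2a1 was again at 0.0162 and Tnni2 at 0.34. The upper ends of the ranges of Atp2a1 and Tnni2 were those without wild type replicate 3, where these genes read 3613 and 2509 units. On the other arrays they read at most 262.1 and 106.5 units. Why that array was high, and the cause of the other shifts, was not tested. Same-numbered arrays of the 2 genotypes did not deviate together (correlations of -0.10, -0.18 and -0.05). Correlations of differently numbered arrays ran from -0.14 to 0.21. With 3 arrays a group, such values cannot settle whether the numbers pair the samples, and the labels do not say. No depth can be given for arrays, and values under about 100 units carry no detection call.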
